A study of Mus musculus with 16 samples.

Results

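The regions described here held a peak in the Foxn4 list alone and lay between protein-coding genes. Peaks of the Foxn3, Foxn4 and Rfx3 lists that overlapped by at least 1 bp were merged, and a merged region was chosen by 3 conditions: it lay on chromosomes 1 to 19, it held Foxn4 peaks only, and its midpoint was outside every protein-coding gene and more than 1 kb from any gene end. Of 6155 merged regions, 797 met these conditions. They were 797 of the 1598 Foxn4-only regions on chromosomes 1 to 19 and 797 of the 1808 regions between genes. Each held exactly 1 Foxn4 peak. Presence of a Foxn4 peak, absence of the others and position were used for the choice, so none of these is a finding. The lists came from CUT&RUN, in which an antibody directs micrococcal nuclease to a protein on chromatin in unfixed cells and the released DNA is sequenced, on pooled and dissociated retinas of CD-1 embryos, an outbred mouse stock, at embryonic day 16. The antibody groups were anti-Foxn4 with 2 libraries, anti-Foxn3 with 4 and anti-Rfx3 with 2, all in untreated tissue with no genetic change named in the labels. Their controls were mouse IgG for Foxn4 (2 libraries), rabbit IgG for Foxn3 (4) and rabbit IgG for Rfx3 (2). Nuclease acted for about 12 h in the Foxn4 and mouse IgG libraries and for 1 h in the rest, so in every comparison with the other lists the antibody, the digestion time and the control species cannot be told apart. Pooling of embryos means that no library stands for a single animal. Each antibody had 1 deposited list, with no value per library, so no result below has a spread between replicates, depth is unknown, and the labelled tissue could not be checked against marker genes.

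Foxn4 is a forkhead transcription factor made in dividing retinal progenitors. It is required for horizontal cells and for most amacrine cells, the interneurons of the inner retina, and is known to act upstream of Ptf1a and of the Notch ligand Dll4. Many genes that control development are regulated by enhancers, stretches of DNA that can lie far from the gene they act on, often in large gaps without other genes. The gene nearest to a region is therefore a label for its place and need not be the gene it acts on.

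A few of the regions coincided with an annotated start of a gene that codes no protein. Sequence was at hand only around annotated starts, and 763 of the 797 regions were searched. Of these, 7 overlapped such a window, which runs from 250 bases before a start to 50 after it (RefSeq, GRCm38.p6, the same assembly as mm10). All 7 belonged to long non-coding RNAs (lncRNAs): C130071C03Rik, Gm8541, Gm30539, Gm14403, Gm38882, C230057A21Rik and 2810410L24Rik. The position rule kept windows of protein-coding genes out of reach, so the absence of protein-coding starts is not a finding. The 4 below are shown because they are the only letters under the regions discussed later or are covered almost whole. Each is printed 5′ to 3′ on the strand of its gene, with the bases inside the Foxn4-only region in capitals. The C130071C03Rik window (chr13:83732243-83732542, plus strand) was covered over 229 of its 300 bases. Its start lies inside the gene (chr13:83721381-83741308), which spans the microRNA gene Mir9-2. Gm8541 (chr2:63575239-63575538, minus strand) was covered over all 300. Gm30539 (chr10:126957773-126958072, plus strand) was covered over 296. Gm14403 (chr2:177497976-177498275, plus strand) was covered over 168 and lies in the crowded stretch beside Zfp970 described below.
C130071C03Rik: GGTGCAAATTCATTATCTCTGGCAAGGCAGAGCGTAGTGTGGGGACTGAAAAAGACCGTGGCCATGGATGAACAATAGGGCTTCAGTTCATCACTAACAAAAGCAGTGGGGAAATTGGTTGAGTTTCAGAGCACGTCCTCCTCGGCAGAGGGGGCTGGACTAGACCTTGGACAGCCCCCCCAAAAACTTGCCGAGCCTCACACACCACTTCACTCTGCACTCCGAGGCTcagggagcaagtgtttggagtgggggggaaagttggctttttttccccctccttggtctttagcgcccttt
Gm8541: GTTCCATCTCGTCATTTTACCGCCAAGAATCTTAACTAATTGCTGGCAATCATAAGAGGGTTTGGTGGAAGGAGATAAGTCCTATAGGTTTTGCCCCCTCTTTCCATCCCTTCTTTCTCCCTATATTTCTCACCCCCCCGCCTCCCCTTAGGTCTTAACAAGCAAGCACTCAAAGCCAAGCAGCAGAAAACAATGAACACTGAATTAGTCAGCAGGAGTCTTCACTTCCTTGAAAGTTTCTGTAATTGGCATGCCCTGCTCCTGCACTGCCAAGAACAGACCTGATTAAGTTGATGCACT
Gm30539: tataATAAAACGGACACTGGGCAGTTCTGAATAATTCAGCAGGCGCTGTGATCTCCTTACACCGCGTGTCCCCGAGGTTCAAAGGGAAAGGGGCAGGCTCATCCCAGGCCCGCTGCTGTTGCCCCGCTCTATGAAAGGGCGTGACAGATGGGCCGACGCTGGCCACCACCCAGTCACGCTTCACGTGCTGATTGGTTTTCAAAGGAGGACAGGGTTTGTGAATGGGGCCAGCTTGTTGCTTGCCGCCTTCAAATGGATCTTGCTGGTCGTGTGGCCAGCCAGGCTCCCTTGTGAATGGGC
Gm14403: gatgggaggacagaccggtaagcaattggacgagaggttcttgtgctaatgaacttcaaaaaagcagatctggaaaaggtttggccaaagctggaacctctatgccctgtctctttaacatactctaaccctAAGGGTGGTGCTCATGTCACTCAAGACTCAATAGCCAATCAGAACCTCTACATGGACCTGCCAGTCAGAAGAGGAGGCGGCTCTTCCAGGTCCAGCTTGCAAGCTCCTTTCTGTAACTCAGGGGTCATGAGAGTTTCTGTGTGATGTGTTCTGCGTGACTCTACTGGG

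These windows were searched on both strands for 8 short motifs, none of which contains another. CCAAT, the box bound by NFY, was in 6 of the 7 windows, in 4 of them inside the Foxn4-only region, and in 37.3% of all 31396 promoter windows on chromosomes 1 to 19. GACGC, the forkhead-like motif that several Foxn proteins bind, was in 4 of the 7 (inside the region in 3), against 27.4% of all promoters and 15.8% of the 11311 lncRNA promoters. TAAACA, the core of the classical forkhead site, was in 0 of the 7, against 13.5% of all. GTTGCC, part of the X-box bound by RFX proteins, was in 1 of the 7 (Gm30539), against 12.2% of all. CAGCTG (E-box) was in 0 of the 7, TAATTA (homeobox) in 1, ACAAAG (SOX) in 3 (inside the region in 1) and GGGCGG (GC box) in 1, against 16.3%, 5.27%, 18.6% and 36.0% of all. With 7 windows these counts only describe the letters present. GC content ranged widely among them, from 45.7% in Gm8541 to 74.0% in 2810410L24Rik, around a median of 53% over all promoters. In Gm38882, at 69.7% GC, CG pairs were as frequent as its base content gives (observed over expected 1.10, against a median of 0.389). Over lncRNA promoters alone the median was 48.3% for GC content and 0.246 for that ratio.

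Position chose the regions, so their distance from genes is described and compared only among regions between genes. Their median distance to the nearest protein-coding gene end was 77025 bp (quartiles 22017 and 262354 bp, range 1008 to 1906208 bp), and 365 of the 797 lay over 100 kb away (45.8%, 95% Wilson interval 42.4% to 49.3%). Of the 1011 other regions between genes, chosen by the same position rule but holding a Foxn3 or Rfx3 peak, 254 lay that far away (25.1%, 22.5% to 27.9%). The odds ratio was 2.52 (2.06 to 3.07, Fisher's exact test, two-sided, exact p = 4.27e-20, adjusted exact p = 2.13e-19 over 5 tests). Against the 296 between-gene regions that shared a Foxn4 peak with another factor the difference was smaller and did not pass: 118 lay over 100 kb away (39.9%, 34.5% to 45.5%), an odds ratio of 1.27 (0.972 to 1.67, adjusted exact p = 0.115, a test added after the data were seen). Regions of Foxn3 and Foxn4 without Rfx3 reached 50.5% (53 of 105), while Rfx3-only regions stood at 19.4% (89 of 458). Regions of all 3 factors stood at 35.9% (55 of 153) and those of Foxn4 and Rfx3 at 26.3% (10 of 38). Regions are not replicates and neighbours are not independent, so these p-values describe the lists.

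**Figure D1:**
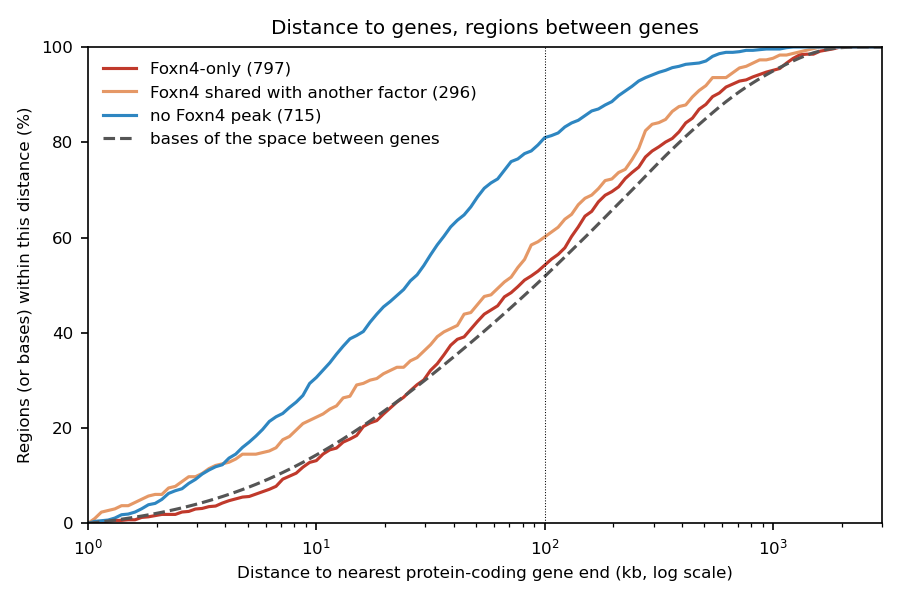
Cumulative share of between-gene regions (y axis, percent) within a given distance of the nearest protein-coding gene end (x axis, kb, log scale) for the 797 Foxn4-only regions, the 296 regions sharing a Foxn4 peak, the 715 without one, and the bases of the between-gene space itself (dashed). The Foxn4-only curve runs close to the dashed line and the curve without Foxn4 lies well to its left, and the dotted line marks 100 kb.

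Set against the space they could occupy, the regions were spread much as the bases were. The space outside protein-coding genes and over 1 kb from their ends covered 1413 Mb of chromosomes 1 to 19, counted from the first to the last gene with assembly gaps included. Of it, 48.2% lay over 100 kb from a gene end, beside 45.8% of the regions, and its median distance was 91069 bp beside 77025 bp. Where the strand of the nearest gene was known, 342 of 635 regions were upstream of it (53.9%, 50.0% to 57.7%) and 53.4% of the space was. On average there were 0.564 Foxn4-only regions and 0.716 other regions per Mb of this space.

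Inside lncRNA genes lay 122 of the midpoints (15.3%, 13% to 18%), against 220 of the 1011 other regions between genes (21.8%, 19.3% to 24.4%). The odds ratio was 0.650 (0.509 to 0.829, Fisher's exact test, adjusted exact p = 0.00139 over 5 tests, added after the data were seen). The compared sides also differed in distance from genes (45.8% against 25.1% over 100 kb), and the lncRNA shares were not matched on it. Here too regions are not replicates, so the p-value describes the lists. LncRNA genes covered 11.9% of the space. Gm14403 held 7 of the regions, Gm30340 3 and Sox2ot, the transcript that spans the Sox2 gene, 3.

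Each peak carries a score of the authors' own on an unstated scale, used here only to rank peaks within the Foxn4 list. It rose in steps of 0.889. Among the 797 regions its median was 6.22 (quartiles 5.33 and 8.0, range 2.67 to 37.3), which is 7 steps. Most scores were low: 441 regions lay under the median of the whole Foxn4 list, 7.11. The 801 Foxn4-only regions in or near genes had the same median, and the share at or above the list median was 44.7% (41.2% to 48.1%) between genes and 46.2% (42.8% to 49.7%) in or near them (odds ratio 0.940, 0.772 to 1.15, Fisher's exact test, adjusted exact p = 0.547). The interval of that ratio holds differences in either direction. Between-gene regions that shared a Foxn4 peak scored higher. Their median Foxn4 scores were 9.78 (Foxn3 and Foxn4), 8.89 (all 3 factors) and 7.11 (Foxn4 and Rfx3), the highest peak of each region being used. That difference was not tested.

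Many of the highest scores belonged to narrow regions. Median width was 350 bp (quartiles 278 and 431 bp, range 63 to 1321 bp), and 43 regions were under 150 bp. Of the 20 highest-scoring regions, 13 were under 150 bp, against 30 of the remaining 777 (3.86%). No region under the list median score was that narrow (0 of 441; a count of 0 limits the share to 0.680%), while 41 of the 197 at or above the upper quartile of the list were (20.8%). The top region lay 141877 bp from Cdh8, a classical cadherin gene (chr8:98882547-98882642, 96 bp, score 37.3). Next came regions 121444 bp from Enc1 (chr13:97374430-97374538, 109 bp, score 35.6), 127202 bp from Dbpht2 (chr12:74427636-74427705, 70 bp, score 24.9) and 461517 bp from Pcdh17, a protocadherin gene (chr14:83982015-83982077, 63 bp, score 20.4). That last region was also the narrowest of all. Narrow peaks scored high over the whole Foxn4 list too. Its 81 peaks under 150 bp, these 43 among them, ran from 7.11 to 37.3 with a median of 12.4. High scores of narrow regions are therefore not shown to be particular to those between genes.

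Wide regions among the highest scores were fewer. The region 614770 bp upstream of Lingo2 (chr4:37566254-37566775) was 522 bp wide and scored 18.7. Those near Brip1 (chr11:86039240-86039882, 643 bp) and Psat1 (chr19:15803255-15803763, 509 bp) both scored 16.9. Between genes 5.40% of regions were under 150 bp (4.03% to 7.19%) and in or near genes 3.62% (2.53% to 5.15%), an odds ratio of 1.52 (0.938 to 2.46, Fisher's exact test, adjusted exact p = 0.115), so a difference in narrow regions did not pass the threshold.

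**Figure D2:**
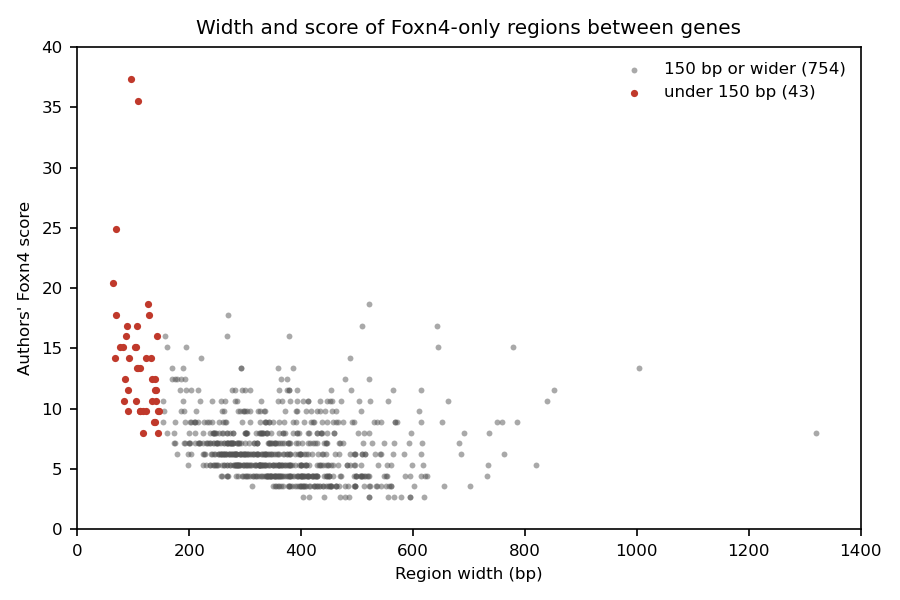
Authors' Foxn4 score (y axis, unstated scale) against width in bp (x axis) for the 797 Foxn4-only regions between genes, each point 1 region. The 43 regions under 150 bp (red) run from a score of 8.0 to 37.3, and the 754 wider ones (grey) from 2.67 to 18.7.

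Some regions lay close together. Of 20661 protein-coding genes, 590 were nearest to at least 1 region (2.86%): 478 to 1 region, 69 to 2 and 43 to 3 or more. Chaining regions within 50 kb of each other left 683 groups, of which 625 were single regions (78.4% of the regions), 39 were pairs and 19 held 3 or more, with 94 regions among them. In 15 of these 19 groups no Foxn3 or Rfx3 peak lay anywhere in the span. The spans were short, from 1.43 to 74.7 kb, and other regions between genes lay at 0.716 per Mb. A span that short would usually hold none.

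The most crowded place was Cwc22 on chromosome 2, which encodes a splicing factor. It was nearest to 19 regions, with scores from 3.56 to 11.6 and a median of 6.22. They lay on either side of the gene, 6 in 9.56 kb on its low-coordinate side and 13 in 63.7 kb on the other. Across the whole span, chr2:77870012-78023289, the Foxn4 list had 43 peaks, 23 of them overlapping the gene itself, while the Foxn3 and Rfx3 lists had 0. The widest region of all was here (chr2:77873457-77874777, 1321 bp, score 8.0). The Cwc22 segment is known to vary in copy number among mouse stocks, and whether copy number has a part in these peaks was not tested.

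Zinc finger gene clusters came next. Zfp970, in a cluster of zinc finger genes near the end of chromosome 2, was nearest to 14 regions within 28.8 kb (chr2:177496514-177525315), with scores from 2.67 to 7.11. Their median of 4.44 was below that of all 797 regions, and no peak of the other lists lay among them. The neighbouring Gm14410 was nearest to 5 more. On chromosome 13 a stretch of 443 kb with Zfp640 and similar genes (chr13:66292511-66735925) held 15 regions, scoring 3.56 to 6.22, and none of the Foxn3 or Rfx3 peaks. The Cwc22 stretch and these 2 zinc finger stretches, picked after their values were seen, held 53 of the 797 regions (6.65%) and 1 Foxn3 peak. Smaller groups lay beside Gm51598 (6 regions in 16.3 kb of chromosome 8), 1600014C10Rik on chromosome 7 (4), the defensin gene Defa21 on chromosome 8 (4) and the interferon gene Ifna13 on chromosome 4 (3 in 1.43 kb), and 5 lay in 9.24 kb beside Cd244a and Itln1 on chromosome 1.

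**Figure D3:**
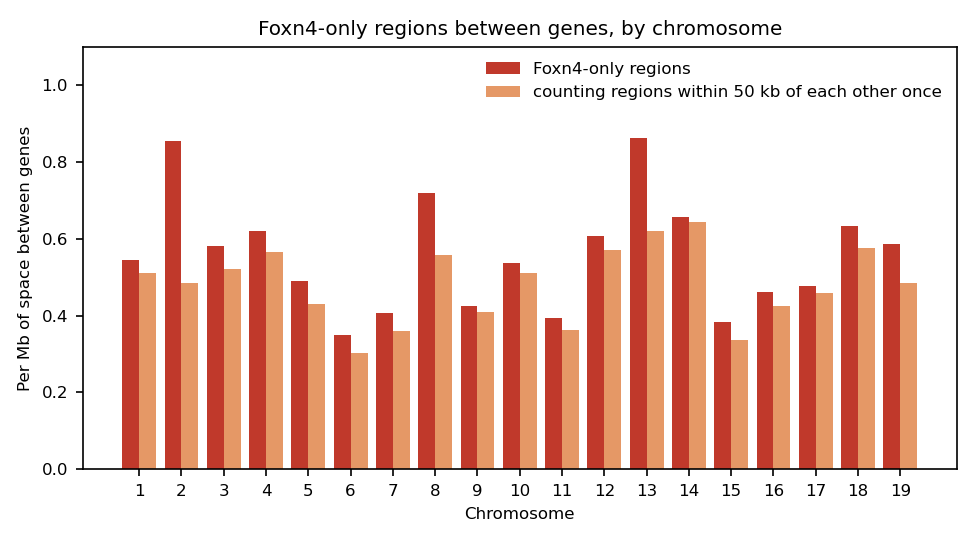
Foxn4-only regions per Mb of space between genes on each of chromosomes 1 to 19 (red bars), and the same with regions within 50 kb of each other counted once (orange bars). Chromosomes 13 and 2 are highest at 0.862 and 0.856 per Mb and drop to 0.620 and 0.486 when neighbours are counted once, while chromosome 6 is lowest at 0.350.

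Other regions lay beside developmental regulators. Genes of the retinal progenitor list, transcription factors and cell cycle genes that keep progenitors dividing or pattern the eye, were nearest to a region in 10 of 35 cases (28.6%). Over all 20661 protein-coding genes the share was 2.86%. Such genes also have more space around them, a median of 93.8 kb against 15.9 kb for all genes, so the regions were counted per Mb of that space as well. There were 20 regions in 10.4 Mb, or 1.92 per Mb (95% exact Poisson interval 1.17 to 2.96, counting error only), against 0.564 over all genes. Without Nr2f1, the gene with the most, the density was 1.54. Other regions between genes were dense near the same list too. They were nearest to 8 of its 35 genes (22.9%, beside 3.95% of all genes), with 16 regions or 1.54 per Mb (0.878 to 2.49) against 0.716 over all genes, so nothing particular to Foxn4-only regions can be read from it. Counting any gene with an end within 100 kb of a Foxn4-only region gave 14 of the 35, against 3.98% of all genes. No test was made on any gene list, and a gene can stand in more than 1 list.

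Sox2, which keeps retinal progenitors in their dividing state, was nearest to 5 Foxn4-only regions. The nearest lay 3650 bp upstream of the gene (chr3:34646178-34646513, score 8.89), and 2 lay downstream within 15510 bp (chr3:34661907-34662306 and chr3:34667802-34668141, both scoring 4.44). These 3 were inside the lncRNA gene Sox2ot. The remaining 2 were farther upstream, at chr3:34441401-34441747 (score 4.44) and chr3:34504273-34504593 (score 6.22). No Foxn3 or Rfx3 peak lay among the 5, the nearest being 484699 bp away.

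Nr2f1 encodes a nuclear receptor that patterns the optic vesicle and takes part in amacrine development. It was nearest to 6 regions, all upstream, in a gap that gives the gene 1.35 Mb of space. Of these, 4 lay together between 1189266 and 1263578 bp away (chr13:79388018-79462671), with scores from 4.44 to 10.7. The other 2 were 126006 bp away (chr13:78324677-78325082, score 8.89) and at chr13:78642270-78642633 (score 4.44), the latter 266 bp from a Foxn3 peak. Nr2f1 was also nearest to 4 regions of other classes, but at the distant group of 4 the nearest Foxn3 or Rfx3 peak was 709212 bp away.

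Pax6, the master regulator of eye development and a factor that amacrine cells keep, had 1 region 8379 bp upstream (chr2:105660221-105660813, score 7.11), inside the lncRNA genes Paupar and Pax6os1. Otx2, needed for photoreceptors and bipolar cells, had 1 at 48098 bp downstream (chr14:48608376-48608991, score 7.11). Meis1 had 2, of which 1 was narrow (chr11:18719194-18719298, 105 bp, score 10.7). Zic5 had 1 inside the lncRNA gene Gm5089 (chr14:122450761-122451016, score 10.7). Sox8, Sox9, Nfib and Vax1 had 1 each.

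Among amacrine and horizontal cell genes, 6 of 30 were nearest to a region (20%, beside 2.86% of all genes), with 9 regions in 8.08 Mb or 1.11 per Mb (0.509 to 2.11), an interval that includes the value over all genes, 0.564. Other regions between genes numbered 3 there (0.371 per Mb). Prox1, needed for horizontal cells, had 3 regions, all upstream and at least 458820 bp from any peak of the other lists. They lay at chr1:190192054-190192362 (score 6.22, inside the lncRNA gene Prox1os), chr1:190334101-190334535 (score 8.0) and chr1:190452504-190452830 (score 9.78). Barhl2, a factor of amacrine and ganglion cells, had 2 upstream, at chr5:106468624-106468864 (score 10.7) and chr5:106472064-106472331 (score 7.11). Neurod4, which acts in amacrine cell genesis, had 1 at 1927 bp (chr10:130281921-130282442, score 3.56). Isl1 and Tcf4 had 1 each, and Pax6 stands in this list too. Ptf1a, a known target of Foxn4, was not the nearest gene of any region, nor was Foxn4 itself. With 0.0310 and 0.00712 Mb of between-gene space, neither was likely to have one. The rule also leaves out peaks in or near genes and shared peaks, so this does not speak to Foxn4 binding there.

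The Notch pathway, through which progenitors hold each other back from differentiating, had 1 of 30 genes (3.33%, close to the 2.86% of all genes). That gene was Hes1, a Notch-induced repressor, with 2 regions scoring 5.33 (chr16:29883150-29883766 and chr16:30038640-30039011). Dll4, with only 0.0195 Mb of between-gene space, was not nearest to any. Density for the Notch list was 0.857 per Mb (0.104 to 3.09), an interval that includes the value over all genes, and other regions stood at 1.71 (0.467 to 4.39). Photoreceptor and ganglion cell genes had 5 of 40 (12.5%), but with 5 regions in 10.5 Mb their density was 0.477 per Mb (0.155 to 1.11), near that of all genes. Atoh7, needed for ganglion cells, had 1 region 10290 bp upstream (chr10:63089275-63089715, score 7.11), and the others were Irx1, Irx5, Isl1 and Otx2. Other regions between genes were nearest to 10 of these 40 genes (25%, beside 3.95% of all genes), at 1.05 per Mb (0.524 to 1.88). Primary cilium genes had 3 of 56 (Ahi1, Bbs9 and Ift43), which in their small space of 1.96 Mb gave 1.53 per Mb (0.316 to 4.48), an interval that includes the 0.564 over all genes. Other regions stood at 2.55 per Mb there (0.829 to 5.96). Motile cilium genes had 1 of 50 (Dnah8), or 0.480 per Mb (0.0122 to 2.67), and other regions had the same density.

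Among 35 marker genes of lens, pigment epithelium, vessels and immune cells, 6 were nearest to a region (17.1%, beside 2.86% of all genes). Their 8 regions gave 1.81 per Mb (0.781 to 3.56), against 0.564 over all genes, and 1.18 without Mitf. Other regions between genes were nearest to 2 of the 35 (5.71%, beside 3.95% of all genes). Their density was 0.904 per Mb (0.246 to 2.32), against 0.716 over all genes, and the 2 intervals overlap. Mitf, the regulator of pigment cells, had 3 Foxn4-only regions between 66293 and 97310 bp away. The pigment enzyme genes Tyr, Dct and Tyrp1 had 1 each, at 11310, 28522 and 531819 bp. The lens crystallin gene Cryba4 had 1 at 135842 bp, and Ptprc, a gene of blood cells, 1 at 63146 bp. The pigment epithelium genes Rpe65, Pmel, Rlbp1, Best1, Rgr and Ttr had 0. So did the other lens genes listed (Cryaa, Cryba1, Crybb1, Crygs, Mip, Bfsp1, Bfsp2, Foxe3 and Pitx3). The same held for the vessel genes listed, among them Pecam1, Cdh5, Kdr and Tek, and for the immune genes Aif1, Csf1r and Cx3cr1. Peak lists hold no expression, so the presence of other eye tissues was not tested.

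The listed cell adhesion genes were often the nearest gene, at a density no higher than that of all genes. Of 26 classical cadherin and protocadherin genes 11 were nearest to a region (42.3%, beside 2.86% of all genes), with Cdh12 at 4 regions and Pcdh7 at 3. These genes have a median of 1486 kb of space each, and with 20 regions in 36.6 Mb the density was 0.546 per Mb (0.333 to 0.843), beside 0.564 over all genes. The list leaves out Pcdh20, a protocadherin gene nearest to 5 regions in 2.73 Mb of space, which would raise that density. Other regions between genes were nearest to 10 of the 26 (38.5%, beside 3.95% of all genes). Their density there was 0.300 per Mb (0.150 to 0.537), below their 0.716 over all genes. Synaptic and axonal adhesion genes had 10 of 54 (18.5%) at 0.341 per Mb (0.186 to 0.572), led by Tenm3 with 4 regions. Other regions stood at 0.146 per Mb there (0.0536 to 0.318). Counting genes with an end within 100 kb of a region instead left 3 of the 26 cadherin and 2 of the 54 synaptic adhesion genes. Over all protein-coding genes that count gave 3.98%.

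**Figure D4:**
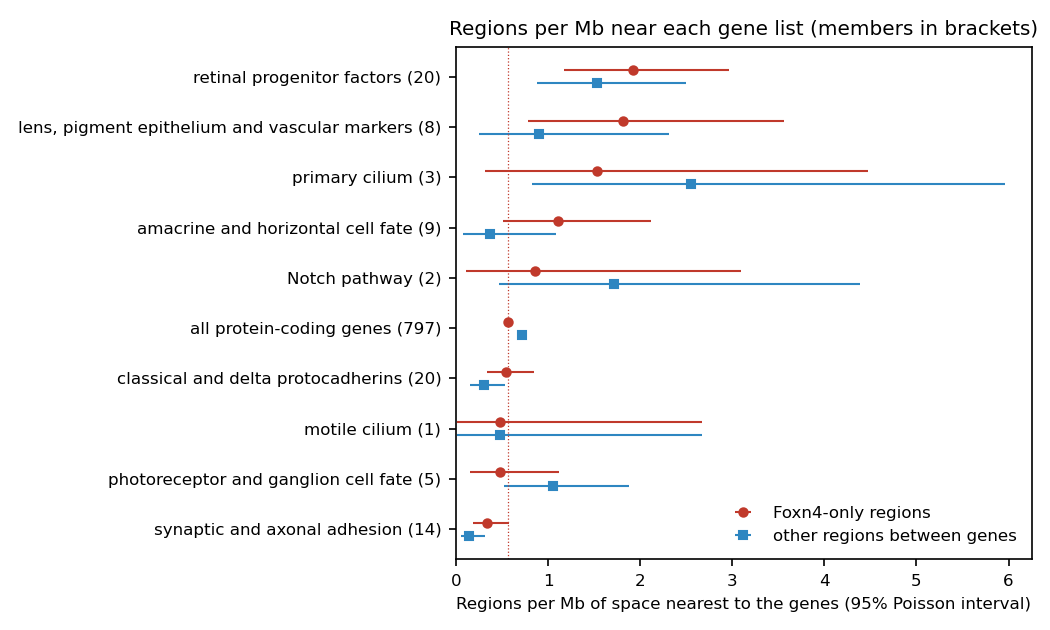
Regions per Mb of the between-gene space nearest to the genes of each list (x axis) for Foxn4-only regions (red circles) and other regions between genes (blue squares), with 95% Poisson intervals and the number of Foxn4-only regions in brackets. The dotted line is the Foxn4-only density over all genes, 0.564 per Mb, and among the Foxn4-only points the retinal progenitor list has the highest value, 1.92, with an interval that overlaps that of the lens, pigment epithelium and vascular list at 1.81.

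Beyond the lists, 5 regions each were nearest to Zfp608 and Pcdh20, and 4 each to Fam98a, Pdha2, Psat1, Slc4a3 and Zfp703.

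Mef2c, which encodes a transcription factor of muscle and neurons, was nearest to 4 regions, and 3 of them flank a microRNA gene. Of these, 2 were inside C130071C03Rik (chr13:83729569-83729915, score 7.11, and chr13:83732089-83732471, score 5.33), the latter being the region whose promoter sequence is printed above. The next followed at chr13:83741869-83742164 (score 6.22), and 2 Rfx3 peaks lay within the span of the 3, the nearer 374 bp from the promoter region. The Mir9-2 hairpin (chr13:83738814-83738885) lies between them, 3131 bp from the midpoint of the last of them. MiR-9 is known for its part in retinal and brain progenitors, and its 2 mature arms are given here with the seed (bases 2 to 8) in capitals.
mmu-miR-9-5p: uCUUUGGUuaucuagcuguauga
mmu-miR-9-3p: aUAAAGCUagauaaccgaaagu

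Of the 797 regions, 7 had a midpoint within 10 kb of a microRNA gene. The same count was not made for other regions or for the space, so whether 7 is few or many cannot be said. The 7 were the 3 above, 1 at 722 bp from Mir344f and the Sox2ot region at 7803 bp from Mir1897, besides 1 by Mir145b and 1 at 9834 bp from Mir124a-2. The last (chr3:17785698-17785959, score 9.78) was in the lncRNA gene Gm30340, as were 2 others at chr3:17327760-17328117 (score 13.3) and chr3:17329544-17329877 (score 9.78).

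**Figure D5:**
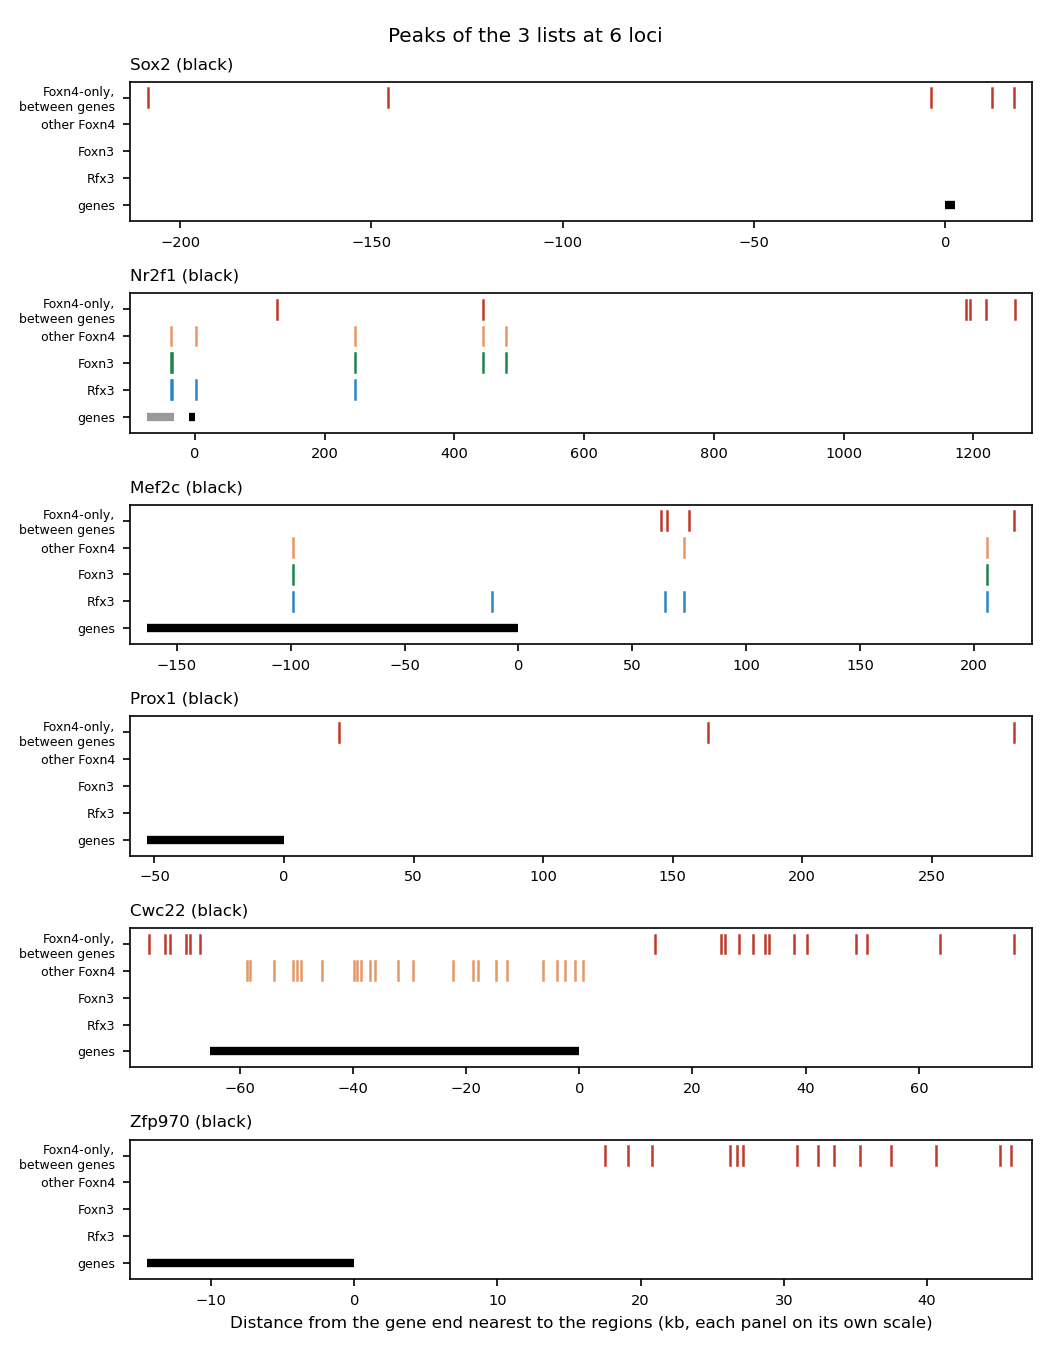
Peaks of the 3 lists at 6 loci, drawn as marks at peak midpoints against distance in kb from a gene end (x axis, own scale in each panel), with protein-coding genes as bars (the named gene black). Foxn4-only regions (red) stand without Foxn3 or Rfx3 peaks at Sox2, Prox1, Cwc22 and Zfp970, and Cwc22 also has Foxn4 peaks in the gene (orange). Overlap with Foxn3 or Rfx3 peaks was excluded by the rule.

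Peaks of the other factors were sparse, and overlap with one was excluded by the rule. The nearest Foxn3 peak was a median of 503630 bp off and the nearest Rfx3 peak 480053 bp, and 75.5% of the regions had neither within 100 kb. Only 15 had one within 1 kb. Other regions lay at 0.716 per Mb of between-gene space, and no such gap was measured for other places. These distances are therefore not shown to be particular to the Foxn4-only regions. The smallest gaps were 176 bp to a Foxn3 peak (chr4:7247254-7247623, nearest gene Tox) and 200 bp to an Rfx3 peak (chr8:20995542-20995851, nearest gene Defa21). On the other side of the limit, the smallest overlap that made a between-gene Foxn4 region a shared one was 108 bp, with an Rfx3 peak near Itln1 (chr1:171514868-171515169). At the 1 kb limit, the nearest regions kept lay 1008 bp from Maf (chr8:115707760-115708045, score 10.7) and 1029 bp from Crxos, and the nearest left out lay 950 bp from Fgf15 (chr7:144895220-144895945, score 7.11) and 944 bp from Ppp1ccb.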

How the data were processed

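Per the labels, CUT&RUN was done on 300000 cells per assay from embryonic day 16 CD-1 retinas, in 16 libraries (8 antibody, 8 IgG). The labels also give a gel slice of 200 to 500 bp for each library, and its bearing on narrow peaks was not tested. The authors deposited 3 peak lists, with mm10 positions per the file headers and a score per peak whose scaling is not stated. Per the submitters' processing notes the tools included cutadapt, Bowtie2, UMI-tools, bedtools and SEACR, and their versions and roles, and which libraries entered each list, are not given in the sources used here.

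Computed here (Python 3.11.15, pandas 2.3.3, scipy 1.17.1) were the merging of peaks sharing at least 1 bp, positions counted from 1, and the distance from each region's midpoint to the ends of 20661 protein-coding genes of a RefSeq table of GRCm38.p6, the same assembly. Strand came from RefSeq promoter windows where they name the gene. Between-gene space was cut at the middle of each gap, so every base belonged to the nearest gene end. Shares carry 95% Wilson intervals and densities 95% exact Poisson intervals, both for counting error only. Two-sided Fisher's exact tests compared shares of regions, each odds ratio having a 95% interval computed on the log scale, and p-values were adjusted over 5 tests after Benjamini and Hochberg. The code was tested on simulated data. The members and gene lists were chosen with earlier results of these data known. Named in the text were the 20 highest-scoring regions (in part), regions nearest to genes of the retina lists, 15 genes with the most regions (of 11 genes tied at 4 regions, the alphabet kept 7, and Slc4a3, Tenm3, Zfp640 and Zfp703 were added afterwards), and regions at the limits of the rule, besides others named after their values were seen: genes of the other lists, the microRNA and lncRNA genes, and the smaller groups. Motif tests planned on the regions were not run, because genome sequence was not used here. The search of promoter windows left out the regions of chromosome 18.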

Additional observations from a re-analysis of the deposited data

Results flagged for a closer look

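Outside the rule, the sex chromosomes also held Foxn4-only regions between genes, a signal in data that the comparisons leave out. There were 31 on chromosome X (scores 3.56 to 15.1, median 7.11), beside 28 regions of other classes there. On chromosome Y there were 10 (scores 3.56 to 9.78, median 5.33) and 0 regions of other classes between genes. IgG values were not analysed here, so no control level can be set beside them.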

How the results depend on the processing

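The difference in distance over 100 kb from the other between-gene regions kept its direction and passed the threshold under all 6 alternatives run (odds ratios 2.19 to 3.19), including 1 region per group within 50 kb, chosen after the data were seen. The lncRNA difference did so under both of its alternatives. The score comparison, which did not pass, turned from 0.940 to 1.18 at the upper quartile of the list (adjusted exact p = 0.173). With only Foxn4 peaks scoring at or above the median 356 regions were left of 797, and the other 5 alternatives gave 643 to 810. Counts of list genes moved by over 1.5 times as follows. Those scores left 0 Notch genes, 3 amacrine and horizontal, 0 motile cilium and 2 photoreceptor and ganglion cell genes. Counting any gene with an end within 100 kb gave 2 of 30 Notch, 3 of 26 cadherin and 4 of 50 motile cilium genes. It also gave 3 of 40 photoreceptor and ganglion cell and 2 of 54 synaptic adhesion genes. By this count 3.98% of all protein-coding genes were included. The motif alternatives were not run. No paired analysis was possible because each antibody has 1 list with no replicate columns. Depth is unknown, so which weak sites were missed cannot be said.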
